A study of Homo sapiens with 11 samples.

Results

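The cytosolic ribosomal protein genes encode the protein part of the ribosome that translates messages exported from the nucleus. They were taken as the listed genes whose Ensembl identifier maps to a numbered RPL or RPS symbol or to RPSA, RPLP0, RPLP1, RPLP2 or FAU, leaving out pseudogenes, RPS27L and the RPS6 kinase genes. The rule gave 83 of 37247 listed genes, of which 46 encode large subunit proteins, 31 encode small subunit proteins (all called canonical here) and 6 are paralogs of large subunit genes. No identifier was matched to RPS18, a small subunit gene, and it was not analysed here.

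RNA was sequenced from cells labelled MDA-MB-231, an established human triple-negative breast cancer line grown in medium with serum. The 3 Control-KD libraries, here also the controls, have the genotype WT, and the 3 H2AS40-KD libraries, here the KD-labelled libraries, have that of a knockdown of S40-type histone H2A. The labels give no knockdown reagent, time or clone, and leave unsaid whether replicates came from separate cultures, so p-values describe the spread among these 6 libraries, which may be technical. The 5 chromatin samples of the series were not analysed here.

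The values are TPM, transcript abundances divided by length and scaled to sum to 1000000 in every library, so the depth behind them was unknown. In bulk values, fewer cells of a type and less RNA per cell cannot be told apart. The labels do not name the S40-type genes. Of H2AC25, H2AC8, H2AC4 and H2AC7, taken as candidates without a sequence to check them, limma called 0 of 3 tested, with H2AC8 alone at an unadjusted p under 0.05. H2AC25 had 32.4 ± 1.10 TPM in the controls and 33.6 ± 1.14 TPM in the KD-labelled libraries, and H2AC8 had 23.8 ± 1.73 and 29.1 ± 3.28 TPM (SD, n = 3 each). H2AC4 had 0.890 and 0.580 TPM and H2AC7 had 0.992 and 0.408 TPM in the group means, lower in the KD-labelled libraries but with 0 in some libraries of both groups and with overlap. The knockdown could not be checked on genes the labels name, and every direction given is between libraries as labelled.

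The cell line's markers went partly against its label. Of 5 genes listed as high in MDA-MB-231, VIM lay between 2247 and 2281 TPM in all libraries, while CD44 (296 to 365 TPM), CAV1 (108 to 156 TPM), AXL (190 to 205 TPM) and MSN (215 to 238 TPM) were lower in every KD-labelled library than in any control, with CAV1 past the test (limma adjusted p = 0.0173). Of 6 genes listed as low or absent, PGR lay between 1.20 and 2.18 TPM, ESR1 between 12.3 and 21.2, CDH1 between 56.8 and 64.8, EPCAM between 163 and 174, GATA3 between 436 and 471 and KRT8 between 3503 and 3629 TPM, and limma called 0 of these, with 0 at an unadjusted p under 0.05, though EPCAM was higher and GATA3 lower in every KD-labelled library than in any control. Of 5 blood cell markers the highest value was 1.45 TPM, for CD14, which was lower in the KD-labelled libraries without overlap (1.33 ± 0.189 and 0.696 ± 0.156 TPM, SD, n = 3 each; limma adjusted p = 0.264), and the other 4 lay at or below 0.707 TPM. The part of these markers in the results on ribosomal protein genes was not tested.

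Ribosomal proteins are needed in near-equal numbers, and their messages are among the most abundant of growing cells. In vertebrates most of these messages begin with a C followed by an unbroken run of pyrimidines, the 5′ terminal oligopyrimidine (TOP) tract, through which the kinase complex mTORC1 and the RNA-binding protein LARP1 control their translation. Loss of a single copy of any of many ribosomal protein genes causes Diamond-Blackfan anaemia, a failure of red cell production.

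The TOP tract is a sequence feature that the choice of members did not use. In the RefSeq promoter table of GRCh38.p14, 66 of the 83 members had a listed start, and 47 of these (71.2%) had a C at a listed start with only C or T at the next 4 bases, read on the gene's own strand. The same held for 5.14% of all 27305 gene symbols in the table, and for 4.07% of all 35116 starts. The run was 5 to 19 bases long, with a median of 8. The starts shown are those of the 6 members with the largest negative difference among those whose groups did not overlap, of RPS9 and RPL19, which were higher without overlap, and of the pair RPL22 and RPL22L1. Each holds 10 bases before the listed start and 20 from it, 5′ to 3′ on the gene's strand, with the TOP tract in capitals.

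RPS27A (chr2:55232678-55232707, plus strand): ggcgttcttcCTTTTCgatccgccatctgc
RPL34 (chr4:108620566-108620595, plus strand): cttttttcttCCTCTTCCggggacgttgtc
RPL35A (chr3:197950180-197950209, plus strand): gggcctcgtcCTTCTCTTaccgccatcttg
RPS3A (chr4:151099618-151099647, plus strand): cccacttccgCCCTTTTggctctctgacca
RPS25 (chr11:119018324-119018353, minus strand): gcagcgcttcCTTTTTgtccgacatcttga
RPS21 (chr20:62387093-62387122, plus strand): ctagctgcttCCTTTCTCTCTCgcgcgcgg
RPS9 (chr19:54200848-54200877, plus strand): gcttccgcgcCTCTTTCTCagtgaccgggt
RPL19 (chr17:39200273-39200302, plus strand): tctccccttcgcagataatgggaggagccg
RPL22 (chr1:6199576-6199605, minus strand): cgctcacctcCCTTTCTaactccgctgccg
RPL22L1 (chr3:170870176-170870205, minus strand): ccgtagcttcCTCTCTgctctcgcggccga

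A tract stood at the start of genes with lower values (RPS25), higher values (RPS9) and overlapping values (RPL22) in the KD-labelled libraries. RPL19 is shown without capitals because neither of its listed starts met the description, which says only that these letters are not at those positions. The 47 members with a tract had a median log2 difference of -0.024, and the 18 tested members with a listed start but no tract had a median of -0.016. All log2 differences here are of log2(TPM + 1), KD-labelled minus Control-KD, which understates the change of low genes. Members with no matched entry included RPL5, RPL7, RPL23A, RPL39L, RPL3L and RPS2. The 83 genes lie on 21 chromosomes, with 12 on chromosome 19 and 4 on the X chromosome.

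Ribosomal protein messages held a similar share of all transcripts in every library. Their summed share of TPM was 16.4%, 16.6% and 16.8% in Control-KD replicates 1 to 3 and 16.4%, 16.4% and 16.3% in the KD-labelled replicates. The means were 16.6 ± 0.223% and 16.3 ± 0.0474% (SD, n = 3 each). The groups overlapped, because Control-KD replicate 1 lay among the KD-labelled values.

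The canonical genes ranged over 54.9-fold in mean TPM, which is corrected for length, although 75 of the 77 had at least 500 TPM on average. RPL41, which encodes a very short protein at the interface of the subunits, was the highest. It had 6881, 7252 and 7357 TPM in the controls and 7242, 7024 and 7409 TPM in the KD-labelled libraries, a mean of 7194 TPM. RPS27 followed at 4188, 4240 and 4300 against 4158, 4306 and 4547 TPM. The libraries of RPL41 lay wholly above those of RPS27, and those of RPS27 above those of RPL35.

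RPL35, a protein near the exit of the peptide tunnel, had 3997, 4008 and 4149 TPM in the controls and 3968, 3934 and 3991 TPM in the KD-labelled libraries. RPS14 had 3824, 3895 and 4079 against 3901, 3852 and 3741 TPM, and RPL37A had 3574, 3741 and 3825 against 3659, 3760 and 3519 TPM. RPL35, RPS14, RPS21 and RPL37A followed each other in mean level, and neighbours in that order overlapped over the 6 libraries. Between the groups the values of RPL35 did not overlap, though the difference was -0.031 (limma adjusted p = 0.519).

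At the low end stood RPL9 and RPS9, with means of 131 and 133 TPM and overlapping libraries. RPL9 had 135, 119 and 135 TPM in the controls and 138, 135 and 125 TPM in the KD-labelled libraries. The next canonical genes by mean level were RPS26 at 596 TPM, RPL22 at 729 TPM and RPSA, also known as the laminin receptor gene, at 853 TPM. RPS26 had 601, 610 and 639 against 602, 588 and 537 TPM, and RPSA had 859, 855 and 902 against 825, 827 and 853 TPM. RPS26 overlapped between the groups through its first KD-labelled library, and RPSA was lower in each KD-labelled library than in any control (log2 difference -0.062, limma adjusted p = 0.363).

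The level of a ribosomal protein gene is uncertain where a processed pseudogene nearly identical to it can share its reads. Of 1575 listed ribosomal protein pseudogenes 1048 were at 0 in every library, and together they held 0.343 ± 0.00253% of TPM in the controls and 0.352 ± 0.0148% in the KD-labelled libraries (SD, n = 3 each). RPL23AP42 had 1746 and 1794 TPM in the group means, above RPL23A, whose libraries lay between 1173 and 1267 TPM. RPS28P7 had 758 and 829 TPM beside RPS28, which lay between 912 and 994 TPM. How reads were divided between such copies was not tested. Of the 68 pseudogenes tested limma called 0, with 9 (13.2%) at an unadjusted p under 0.05, beside 16.5% of all tested genes.

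**Figure D1:**
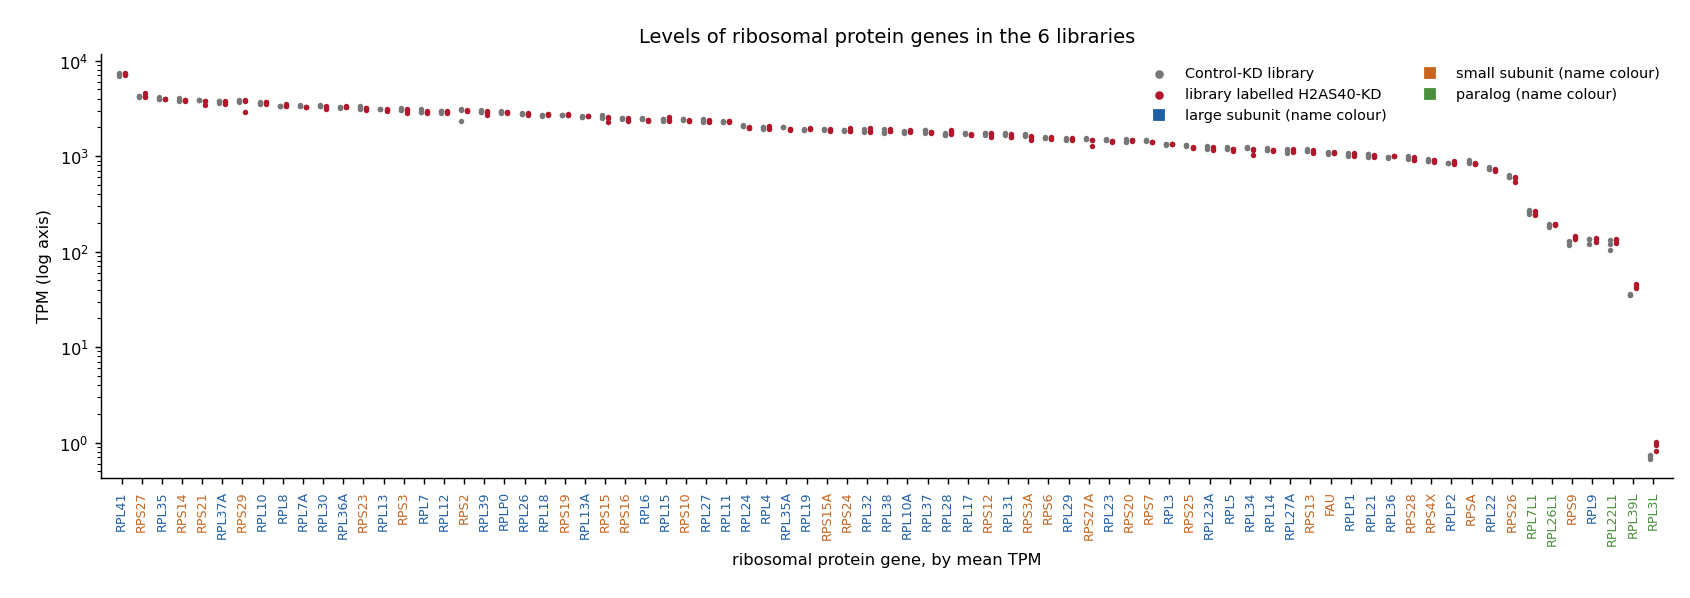
TPM on a log axis of 77 ribosomal protein genes above 0, ordered by mean level, with 1 point per library (grey, Control-KD; red, KD-labelled) and gene names coloured by subunit. RPL41 is highest with a mean of 7194 TPM, most canonical genes have means of at least 500 TPM, and RPL9 and RPS9 lie at 131 and 133 TPM among the paralogs.

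No ribosomal protein gene passed the test between the groups. Of the 83 members 81 had at least 1 TPM in at least 3 libraries and were tested, that is 77 canonical genes and 4 paralogs. Limma called 0 of them higher and 0 lower at an adjusted p under 0.05 over all 14160 tested genes, of which 1.26% were called (0.516% higher and 0.742% lower). At an unadjusted p under 0.05 there were 14 of 81 (17.3%), a share near the 16.5% of all tested genes. That share was 26.2% among the 1782 other genes of at least 100 TPM. Of the 14 members 11 were lower (RPL6, RPL7A, RPL17, RPL23, RPL24, RPL30, RPL35A, RPS3A, RPS7, RPS10 and RPS25) and 3 higher (RPL28, RPL39L and RPS9) in the KD-labelled libraries.

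As a share of TPM, and among these 6 libraries only, the change of most members was closely bounded. Limma's 95% interval lay within 0.25 of 0 on the log2 scale in 75 of the 81, that is between 15.9% lower and 18.9% higher. Members with wider or more distant intervals, named after their values were seen, included RPL22L1, RPL39L, RPS2, RPS9 and RPS29. The residual SD between libraries of a group had a median of 0.038 over the members, against 0.052 in the 1782 other genes of at least 100 TPM and 0.11 in all tested genes.

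A trend of the difference on the genomic span of genes was fitted to these same differences, members included. It was subtracted from the KD-labelled values alone, and its uncertainty does not enter the p-values. Calls made after that step are therefore not independent evidence of lower values. With the trend removed, 4 members were called where 1.40% of 13100 tested genes were. All were lower in the KD-labelled libraries, RPL35A by -0.14 (limma adjusted p = 0.0227), RPS25 by -0.15 (adjusted p = 0.0345), RPL7A by -0.11 (adjusted p = 0.0465) and RPS7 by -0.12 (adjusted p = 0.0496). At an unadjusted limma p under 0.05 there were 49 members with the trend removed, among 2276 of the 13100 genes. On the same genes with the trend kept limma called 0 members, and 14 had an unadjusted p under 0.05, among 2282 genes.

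More members had lower than higher values in the KD-labelled libraries. The median log2 difference of the 81 was -0.026, with 30 positive and 51 negative (63.0%), where the median of all tested genes was 0.011. Negative differences made up 46.9% of all tested genes and 47.9% of the 1782 other genes of at least 100 TPM. The members' median was 0 under quantile normalization and -0.077 with the span trend removed. The groups did not overlap in 22 members (27.2%), where they did not in 24.2% of all tested genes. Of these 17 were lower (21.0%) and 5 higher (6.17%), where the shares of all tested genes were 11.3% and 12.9%. Among the 1782 other genes of at least 100 TPM the groups did not overlap in 34.6%, with 16.2% lower and 18.4% higher.

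The extremes were unevenly spread over the libraries. Control-KD replicate 3 had the highest value in 44 of the 77 canonical genes, and KD-labelled replicate 3 the lowest in 27. Relative to the Control-KD mean of each gene, the median over members was -0.019, -0.0089 and 0.027 in Control-KD replicates 1 to 3 and -0.017, -0.020 and -0.012 in the KD-labelled ones. The first 2 control libraries therefore lay close to the KD-labelled ones, and without Control-KD replicate 3 the median difference was -0.0096. Without KD-labelled replicate 3 it was -0.023, close to the value with all libraries.

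**Figure D2:**
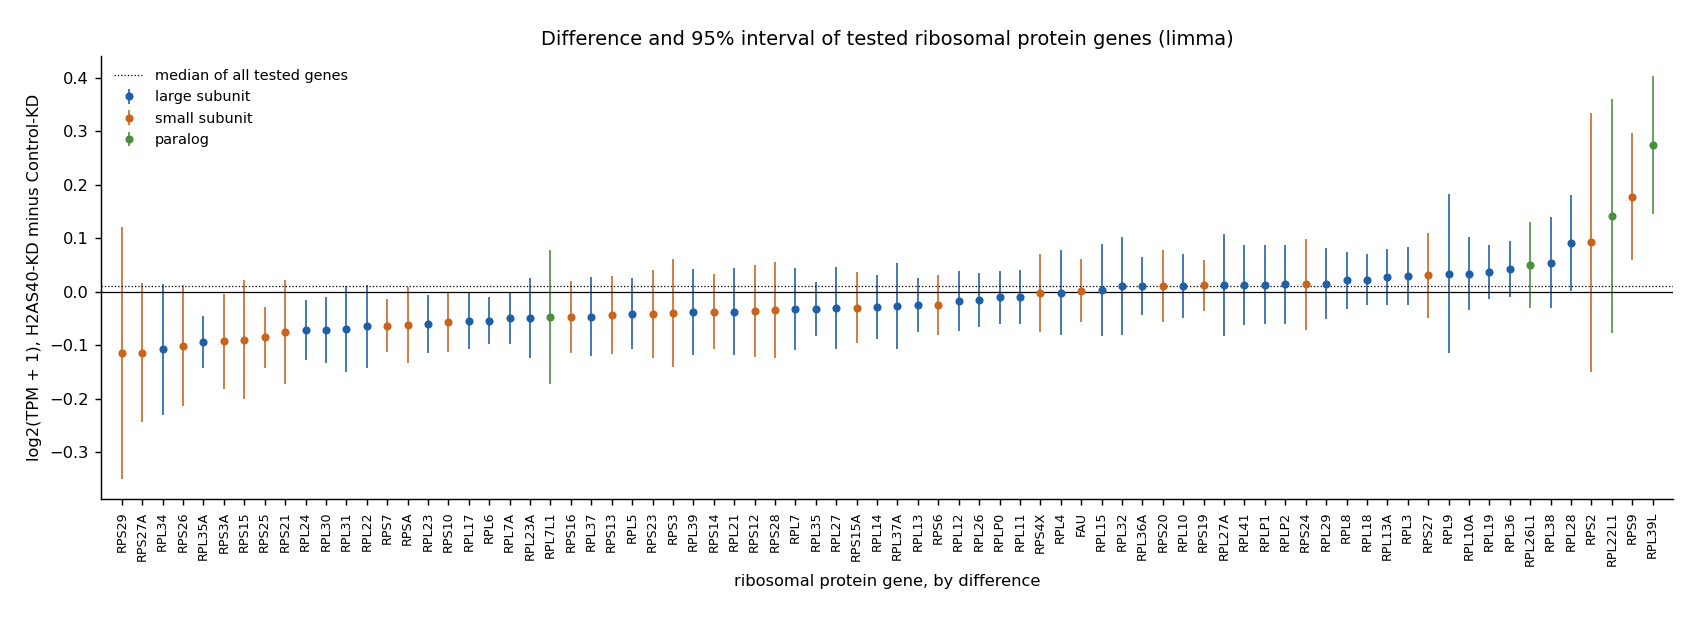
Difference in log2(TPM + 1), KD-labelled minus Control-KD, with limma's 95% interval for 76 of the 81 tested members, ordered by size and coloured by subunit, with a dotted line at the median of all tested genes, 0.011. Of those shown 47 lie below 0 and 29 above, RPS2 and RPS29 have wide intervals, and RPL39L and RPS9 lie farthest above 0.

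Lower values were more frequent among small than among large subunit genes, a contrast that was not tested. Of 31 small subunit genes 23 (74.2%) had a negative difference, with a median of -0.037. Of 46 large subunit genes 27 (58.7%) did, with a median of -0.015, beside 46.9% of all tested genes. The groups did not overlap in 8 small subunit genes that were lower (25.8%) and 1 that was higher (3.23%), and in 9 (19.6%) and 3 (6.52%) large subunit genes, beside 11.3% and 12.9% of all tested genes. Limma called 0 in either subunit, with 5 small (16.1%) and 8 large subunit genes (17.4%) at an unadjusted p under 0.05, shares near the 16.5% of all tested genes. Among the other genes of at least 100 TPM that share was 26.2%, and 16.2% were lower and 18.4% higher without overlap. With the span trend removed the medians were -0.099 for the small and -0.068 for the large subunit, and under quantile normalization -0.014 and 0.011.

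Summed over genes, the small subunit held 6.22%, 6.30% and 6.31% of TPM in the controls and 6.19%, 6.17% and 6.04% in the KD-labelled libraries, without overlap. The large subunit held 10.1%, 10.2% and 10.4% against 10.1%, 10.1% and 10.2%, with overlap. The ratio of mean TPM per gene, large over small, was 1.10 ± 0.0134 in Control-KD and 1.12 ± 0.0192 in the KD-labelled libraries (SD, n = 3 each), and the groups overlapped. The third library of each group had the highest ratio of its group. No p is given for these sums, because the genes were chosen with results of these data known.

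**Figure D3:**
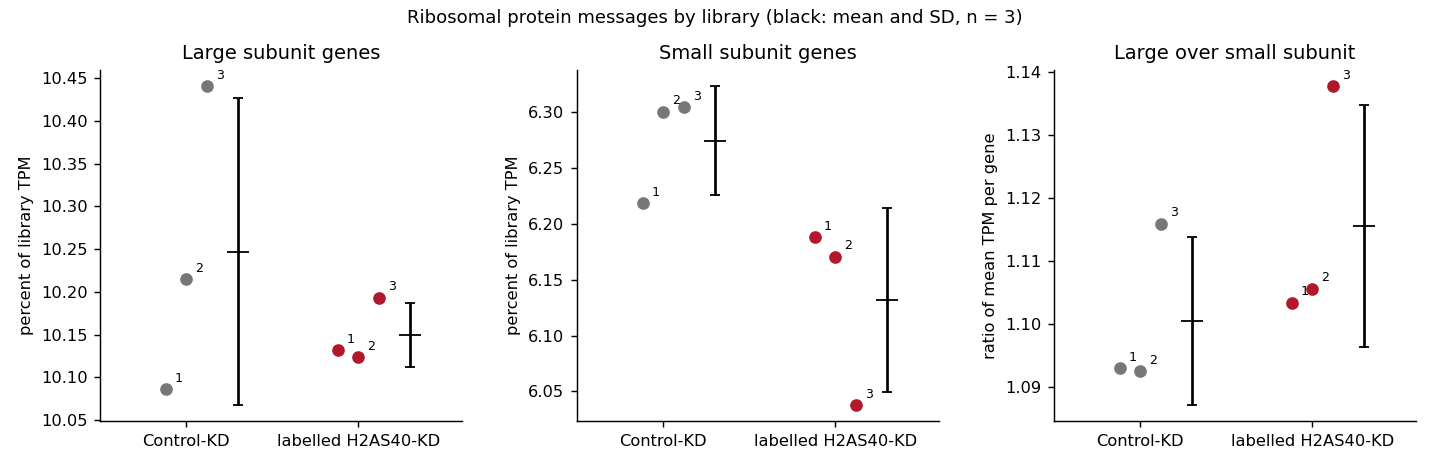
Share of TPM held by large subunit genes (left) and small subunit genes (middle), and the ratio of mean TPM per gene of large over small subunit (right), with 1 point per library and the mean and SD (n = 3) in black; the vertical axes do not start at 0. The small subunit shares do not overlap, with 6.19% or less in the KD-labelled libraries and 6.22% or more in Control-KD, while the large subunit shares and the ratios overlap.

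RPL35A, a large subunit gene mutated in Diamond-Blackfan anaemia (chr3:197950190-197956610, GRCh38.p14), had the smallest p of the canonical genes. It had 2001, 2036 and 2037 TPM in the controls and 1913, 1906 and 1872 TPM in the KD-labelled libraries. Each KD-labelled library lay below every control. The log2 difference was -0.094 with an SE of 0.020 and did not pass (limma adjusted p = 0.0942, and 0.0227 to 0.627 over the alternatives). Its printed start carries a TOP tract of 8 bases.

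Among the other large subunit genes, RPL34 had 1232, 1205 and 1215 TPM in the controls and 1196, 1165 and 1036 TPM in the KD-labelled libraries. The groups did not overlap (limma adjusted p = 0.365), and without KD-labelled replicate 3, the low one, the difference was -0.045 in place of -0.11. RPL7A had 3352, 3359 and 3436 against 3252, 3243 and 3307 TPM, again without overlap, and a difference of -0.050 (limma adjusted p = 0.284).

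The large subunit genes that were higher without overlap differed by small amounts. RPL36 had 951, 978 and 974 TPM in Control-KD, and its KD-labelled mean was 997 ± 2.83 TPM (SD, n = 3), a log2 difference of 0.043 (limma adjusted p = 0.388). RPL19, which lies at the tunnel exit, had 1895, 1884 and 1909 against 1920, 1937 and 1982 TPM, a difference of 0.037 (limma adjusted p = 0.436). RPL18 had 2643, 2714 and 2719 against 2731, 2726 and 2746 TPM, a difference of 0.023 (limma adjusted p = 0.619). In RPL18 the gap between the groups was narrower than the spread of the controls. RPL28 had a larger difference of 0.091 but overlapped, at 1647, 1682 and 1728 against 1781, 1721 and 1890 TPM (limma adjusted p = 0.296), and it was 0.055 without KD-labelled replicate 3.

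The ribosomal stalk, which recruits and activates the translation factors that bind GTP, overlapped between the groups in all 4 genes. RPLP0, its base, had 2882, 2863 and 2957 TPM in the controls and 2879, 2851 and 2911 TPM in the KD-labelled libraries. The paired stalk proteins were similar, RPLP1 with 1067, 1023 and 1013 against 1068, 1014 and 1051 TPM and RPLP2 with 851, 854 and 852 against 849, 898 and 836 TPM. RPL12, which binds the stalk base, had 2863, 2954 and 2972 against 2869, 2860 and 2952 TPM. The differences of these genes lay between -0.018 and 0.014, and limma called 0, with 0 at an unadjusted p under 0.05.

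RPL5 and RPL11 enter the ribosome together with 5S ribosomal RNA and, when assembly fails, bind the p53 regulator MDM2. RPL5 had 1183, 1203 and 1233 TPM in the controls and 1186, 1192 and 1139 TPM in the KD-labelled libraries, a difference of -0.041 (limma adjusted p = 0.516). RPL11 had 2302, 2301 and 2355 against 2267, 2327 and 2322 TPM, a difference of -0.0089 (limma adjusted p = 0.876). Both overlapped. Of 8 genes for proteins that line the exit tunnel or its opening 7 (87.5%) had a negative difference, with a median of -0.035. Among all tested genes 46.9% had a negative difference. Limma called 0 of the 8, with 1 (12.5%) at an unadjusted p under 0.05, beside 16.5% of all tested genes.

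RPS9, a small subunit protein that takes part in decoding accuracy (chr19:54200858-54207647), was the 1 small subunit gene higher in the KD-labelled libraries without overlap. It had 125, 118 and 130 TPM in the controls and 142, 146 and 134 TPM in the KD-labelled libraries. The lowest KD-labelled value lay just above the highest control. The log2 difference was 0.18 with an SE of 0.050 and did not pass (limma adjusted p = 0.159, and 0.129 to 0.356 over the alternatives). The mean over all small subunit genes was 2024 TPM in Control-KD, far above RPS9.

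RPS25, a protein of the subunit's head needed by some viral internal ribosome entry sites (chr11:119015717-119018343), had 1286, 1307 and 1317 TPM in the controls and 1203, 1232 and 1253 TPM in the KD-labelled libraries. Its groups did not overlap, and the difference of -0.085 with an SE of 0.024 did not pass (limma adjusted p = 0.162, and 0.0345 to 0.614 over the alternatives). RPS7, a Diamond-Blackfan anaemia gene, had 1455, 1459 and 1490 against 1408, 1411 and 1397 TPM, a difference of -0.063 (limma adjusted p = 0.214). It was lower in each KD-labelled library than in any control.

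RPS27A, RPS3A and RPS21 were lower without overlap too, each with its lowest value in KD-labelled replicate 3. RPS27A, made as a fusion of ubiquitin with a small subunit protein, had 1496, 1510 and 1562 TPM in the controls and 1478, 1467 and 1284 TPM in the KD-labelled libraries (limma adjusted p = 0.364). Its difference of -0.11 was -0.048 without that library. RPS3A had 1671, 1634 and 1703 against 1590, 1627 and 1483 TPM (limma adjusted p = 0.290), and its difference went from -0.092 to -0.053. RPS21 had 3844, 3860 and 3887 against 3818, 3774 and 3423 TPM (limma adjusted p = 0.420), and its difference went from -0.075 to -0.025. FAU, which fuses a ubiquitin-like protein with a small subunit protein, overlapped at 1065, 1084 and 1115 against 1092, 1079 and 1097 TPM (limma adjusted p = 0.979).

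In RPS2 and RPS29, singled out after their values were seen, 1 library stood far from the others. RPS29 had 3677, 3853 and 3796 TPM in the controls and 3756, 3874 and 2916 TPM in the KD-labelled libraries, a difference of -0.11 (limma adjusted p = 0.618) that was 0.015 without KD-labelled replicate 3. RPS2 had 3065, 3092 and 2329 against 3028, 2959 and 2988 TPM, a difference of 0.093 (limma adjusted p = 0.699) that was -0.042 without Control-KD replicate 3. A single library thus set the sign in both. RPS2P5, a pseudogene of RPS2, was also lowest in Control-KD replicate 3, at 142, 142 and 117 TPM in the controls. Its KD-labelled values of 133, 128 and 132 TPM lay between that library and the other controls.

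Of the 13 tested genes for proteins of the small subunit's head, 10 (76.9%) had a negative difference, with a median of -0.039. Limma called 0 of them, with 2 (15.4%) at an unadjusted p under 0.05. Of 18 Diamond-Blackfan anaemia genes from both subunits 12 (66.7%) had a negative difference, with a median of -0.031. Limma called 0 of these, with 3 (16.7%) at an unadjusted p under 0.05. Among all tested genes 46.9% had a negative difference and 16.5% an unadjusted p under 0.05. The medians of these 2 lists lay near those of all members and of the small subunit.

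**Figure D4:**
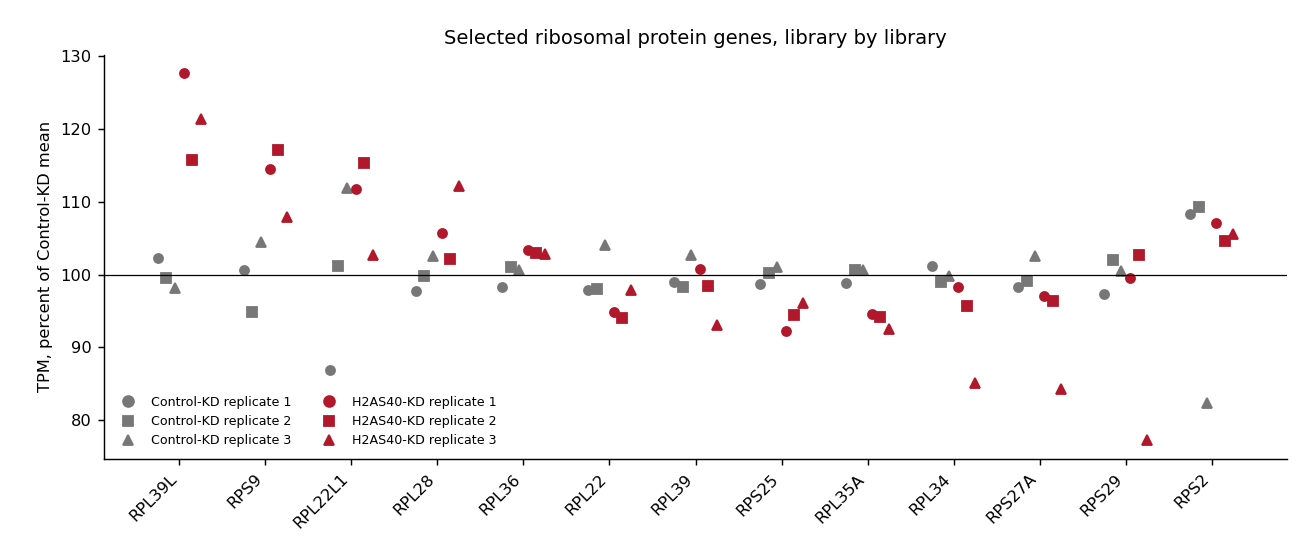
TPM of 13 members as a percent of the gene's Control-KD mean, with 1 point per library (grey, Control-KD; red, KD-labelled; circle, square and triangle for replicates 1, 2 and 3) and a line at 100. RPL39L and RPS9 lie higher and RPS25 and RPL35A lower in every KD-labelled library than in any control, while single libraries stand apart in RPS29 and RPS2.

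Some paralogs of ribosomal proteins are expressed mainly in certain tissues, RPL3L in heart and skeletal muscle and RPL10L and RPL39L in the testis. RPL39L (chr3:187120948-187139496) had the largest difference and the smallest p of the tested members. It had 36.4, 35.4 and 34.9 TPM in the controls and 45.4, 41.2 and 43.2 TPM in the KD-labelled libraries. Every KD-labelled library lay above every control, and the mean was 21.6% higher. The log2 difference was 0.27 with an SE of 0.055 and did not pass (limma adjusted p = 0.0754, and 0.0595 to 0.233 over the alternatives).

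RPL39, the tunnel protein that RPL39L resembles, had 2901, 2879 and 3010 TPM in the controls and 2952, 2885 and 2728 TPM in the KD-labelled libraries, with overlap (limma adjusted p = 0.626). RPL39L was 1.21 ± 0.0484% of RPL39 in Control-KD and 1.52 ± 0.0803% in the KD-labelled libraries (SD, n = 3 each). The paralog was thus a small part of the pair in every library.

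RPL22L1 can replace RPL22 in the ribosome, and in mice RPL22 lowers the message of RPL22L1. RPL22L1 had 103, 120 and 133 TPM in the controls and 133, 137 and 122 TPM in the KD-labelled libraries, with overlap (limma adjusted p = 0.50). Its difference of 0.14 was 0.045 with Control-KD replicate 1 left out and 0.23 with replicate 3 of the same group left out. RPL22 had 730, 731 and 776 against 708, 701 and 730 TPM, a difference of -0.064 (limma adjusted p = 0.391). RPL22L1 was 15.9 ± 1.56% of RPL22 in Control-KD and 18.3 ± 1.46% in the KD-labelled libraries (SD, n = 3 each).

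The remaining paralogs overlapped or were too low to test. RPL26L1 had 186, 193 and 182 TPM in the controls and 193, 192 and 196 TPM in the KD-labelled libraries, beside RPL26 with means of 2796 and 2766 TPM. RPL7L1, which acts in ribosome assembly, had 261, 248 and 276 against 269, 246 and 245 TPM, beside RPL7 with means of 2984 and 2917 TPM. RPL10L was listed at 0 in every library, beside RPL10 with means of 3602 and 3631 TPM. RPL3L lay between 0.670 and 0.732 TPM in the controls and between 0.811 and 1.01 TPM in the KD-labelled libraries, below the filter, beside RPL3 with means of 1320 and 1348 TPM.

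Genes next to the family in function gave 1 call, where limma called 1.26% of all tested genes. RACK1, a scaffold on the small subunit, had 2621 ± 30.0 and 2583 ± 53.5 TPM (SD, n = 3 each). Of 28 initiation factor genes 5 (17.9%) had an unadjusted limma p under 0.05, beside 16.5% of all tested genes. Their median difference was 0.0063, beside 0.011 for all tested genes. EIF6, which keeps the large subunit from joining the small one, was the call among 28 initiation factor genes and rose, from 533 ± 7.76 TPM in the controls to 592 ± 3.79 TPM (SD, n = 3 each; log2 difference 0.15; limma adjusted p = 0.0419, and 0.0338 to 0.222 over the alternatives). The call was lost without each library other than Control-KD replicate 3 (adjusted p of 0.126 to 0.169), with the span trend removed (0.104), without a filter (0.0755), without an intensity trend (0.222), with median-of-ratios scaling (0.0555) and with the replicate number as a term (0.171).

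Of 75 tested mitochondrial ribosomal protein genes limma called 0, with 12 higher and 2 lower at an unadjusted p under 0.05 (18.7%, beside 16.5% of all tested genes, 1240 of them higher and 1097 lower) and a median of 0.0059. The groups did not overlap in 18 that were higher (24.0%) and 3 that were lower (4.0%), beside 12.9% and 11.3% of all tested genes. The smallest p was that of MRPS2, with 141 ± 6.22 and 165 ± 2.60 TPM (SD, n = 3 each, limma adjusted p = 0.0639). Of 6 elongation factor genes 5 had a negative difference, where 46.9% of all tested genes did. Limma called 0 of the 6, with EEF1A1 alone at an unadjusted p under 0.05, at 9055 ± 150 and 8730 ± 161 TPM (SD, n = 3 each, limma adjusted p = 0.289). Limma also called 0 of 6 further TOP messages, with 0 at an unadjusted p under 0.05 and a median of 0.00048. It called 0 of 10 chaperones and partners of ribosomal proteins, with RPS19BP1 alone at an unadjusted p under 0.05, and 0 of 11 genes of mTORC1 signalling and LARP1, with RHEB, an activator of mTORC1, alone at an unadjusted p under 0.05.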

How the data were processed

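Gene-level TPM were deposited by the authors for 6 RNA libraries, and how they were computed is not stated in the labels. hg38, Bowtie2 and MACS2 appear without a role, per the submitters' processing notes. TPM hold no depth, so no counting interval could be given, and a listed 0 can also be an estimate that failed.

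Of 37247 identifiers 34436 had a symbol. Coordinates and start sequences came from RefSeq tables of GRCh38.p14, matched by symbol. A gene was tested if it reached 1 TPM in 3 or more of 6 libraries (14160 genes). Values of log2(TPM + 1) were fitted for all genes in limma 3.58.1 under R 4.3.3 (eBayes, trend on intensity). Tests were two-sided, Benjamini-Hochberg adjusted over all tested genes and called under 0.05. The procedure was tested on simulated data. No pair of libraries was a duplicate, with identical TPM in 0.113% of tested genes or fewer.

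Members and gene lists were chosen with earlier results of these data known. Named members were any called, up to 6 per direction with the largest difference and no overlap, the 3 highest and 3 lowest of each subunit, the stalk, RPL5 and RPL11, fusion genes, and paralogs with their parents. RPL7A, RPL28, RPS2, RPS7, RPS29, the members listed by unadjusted p, RPL23A, RPS28, their pseudogenes and the H2A candidates were added after values were seen. Some members enter the counts and sums but are not reported here individually.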

Additional observations from a re-analysis of the deposited data

How the results depend on the processing

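Alternatives were pseudocounts of 0.1 and 0.5, a filter at 5 TPM or none, quantile or median-of-ratios scaling, TPM rescaled to non-member genes or without mitochondrial transcripts, no intensity trend, the replicate number as a block, removal of a gene-span trend, and leaving out each library. Keeping only genes whose span is known was an alternative chosen after seeing the data. The count of members called was 0 in all of these except with the span trend removed, where it was 4. The cause was not tested. The range over left-out libraries was 0 to 0 for that count. The same removal moved the median difference to -0.077 for all members, -0.068 for the large and -0.099 for the small subunit, and quantile normalization moved them to 0, 0.011 and -0.014. Over left-out libraries these medians ran from -0.033 to -0.0096, from -0.025 to -0.00010 and from -0.047 to -0.026, the share of TPM from members differed by -0.348 to -0.125 percentage points, and the ratio of large to small by 0.0040 to 0.023.

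Same-numbered libraries did not deviate together (correlations of -0.010, -0.064 and -0.0015 over tested genes), so no pairing by number was seen in the values. These correlations cannot tell whether same-numbered libraries were prepared together, which the labels do not say. With the replicate block 0 members and 0 of 14160 genes were called, where 178 genes were called without it. Over all tested genes 10 were called without an intensity trend and 98 without a filter, of 23967 genes. Without a left-out library the count was 6, 10 and 156 (Control-KD replicates 1 to 3) and 7, 5 and 29 (those labelled H2AS40-KD).

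Signs of uncalled members changed with the span trend removed in FAU (-0.066), RPL10 (-0.047), RPL18 (-0.037), RPL19 (-0.020), RPL3 (-0.019), RPL36 (-0.025), RPL41 (-0.056), RPL9 (-0.022), RPLP1 (-0.048), RPLP2 (-0.050) and RPS27 (-0.038), under quantile normalization in RPL11 (0.0071), RPL12 (0.0090) and RPLP0 (0.012), and in FAU also with median-of-ratios scaling (-0.0051) and rescaling to non-members (-0.0023). Over left-out libraries, sign changes lay within ranges of -0.013 to 0.019 (FAU), -0.016 to 0.0032 (RPL11), -0.016 to 0.033 (RPL41), -0.025 to 0.077 (RPL9), -0.019 to 0.0038 (RPLP0), -0.0029 to 0.036 (RPLP1), -0.017 to 0.034 (RPLP2), -0.042 to 0.16 (RPS2), -0.0037 to 0.061 (RPS27) and -0.19 to 0.015 (RPS29). The share of TPM and the ratio have no value under settings that act on the log scale or the fit alone. The unknown depth limits what can be said of RPL3L and RPL10L.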
